A study of Mus musculus with 19 samples.

Results

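The CD105 step among Thy-positive, 6C3-negative cells sets Thy+6C3-CD105+ cells against Thy+6C3-CD105- cells. Both were sorted from limbs of mice at postnatal day 3. The members are 6 of the 19 arrays of the series, chosen by the population field of the labels: 3 arrays of Thy+6C3-CD105+ cells and 3 of Thy+6C3-CD105- cells. Both populations carry the genotype label wild-type, and the protocol describes the mice as GFP-labelled without naming the transgene or its promoter. Each array holds cells of a pooled litter, with fore and hind limbs together, digested with collagenase. All sorted cells were labelled CD45-, Ter119-, Tie2- and integrin alpha V+, a gate that leaves out blood and Tie2-positive vessel-lining cells. The question is how expression differs between these cells when CD105 alone changes in the sort.

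CD105 is endoglin, encoded by Eng, a co-receptor on the cell surface that binds ligands of the TGF beta and BMP families together with their signalling receptors. Thy is a glycoprotein of many mesenchymal cells, and 6C3 is an aminopeptidase encoded by Enpep. Pericytes and vascular smooth muscle cells, together called mural cells, wrap small and larger vessels. They are known for Notch3 signalling, nitric oxide and cyclic GMP signalling and, in larger vessels, a contractile apparatus.

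The 3 Thy+6C3-CD105+ arrays correlated with each other at Pearson's r between 0.984 and 0.995 over all genes. Replicate 3 of Thy+6C3-CD105- stood apart, with r between 0.900 and 0.941 to the other 5 arrays, while those 5 correlated at 0.973 or more. Its deposited median was also the highest of the 6, at 5.91, against 5.60 to 5.72 on the others. In the probe sets for poly-A control RNA, added before amplification, replicate 1 of both populations was low and replicates 2 and 3 of both were high. The low arrays correlated with each other at 0.988, above the r of either to its own group. Nothing in the labels says that the replicates came from separate litters, so p values measure a spread between arrays that may be technical. That spread is estimated over all 18 neonatal arrays of 6 populations, not over these 6 arrays alone. Levels and changes below are on the log2 scale, where a change of 1 is a doubling of signal.

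The sort was visible for Eng, but not in both of its probe sets. The probe set that stands for Eng under the rule of highest mean had 8.75, 8.38 and 8.34 in Thy+6C3-CD105+ cells, against 7.51, 7.61 and 8.58 in Thy+6C3-CD105- cells. The groups overlap through replicate 3 of Thy+6C3-CD105-. The change was 0.59 ± 0.30 (SE) and did not pass the test, with an adjusted p of 0.254 in limma. Without that array it was 0.93, with an adjusted p of 0.267. The second Eng probe set had 8.41, 8.05 and 7.85 in Thy+6C3-CD105+ cells, against 6.19, 6.13 and 5.99 in Thy+6C3-CD105- cells. Here the groups do not overlap, and the array that stood apart lies with its own group. The change was 2.00 ± 0.23 and passed the limma test over 34945 probe sets, where 261 were called. Thy1, which encodes Thy, was at 10.37, 10.47 and 10.19 in Thy+6C3-CD105+ cells and 10.38, 10.31 and 9.99 in Thy+6C3-CD105- cells, and the groups overlap.

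**Figure D1:**
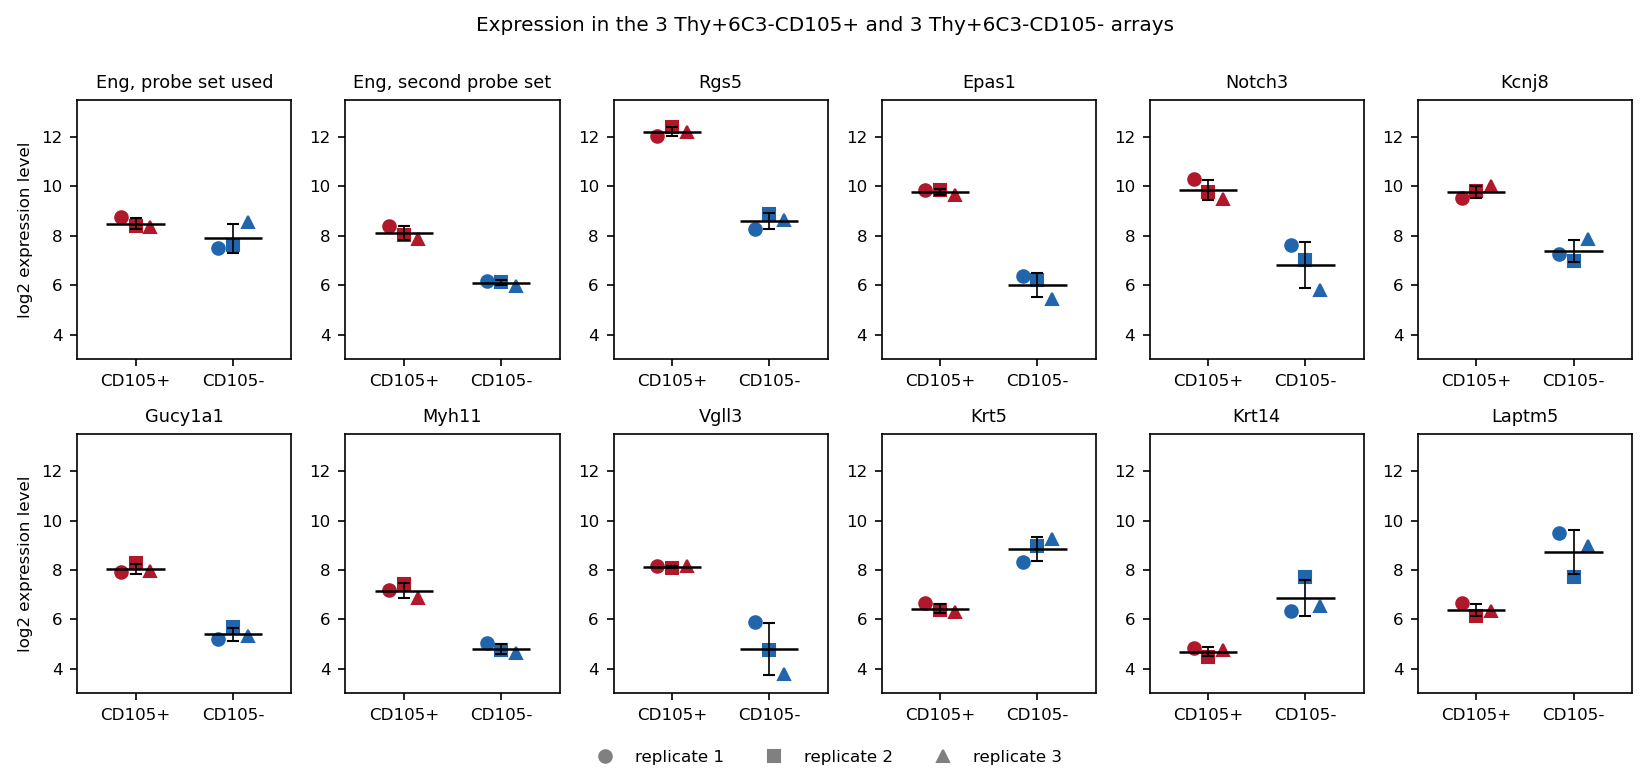
Log2 expression level (y axis) of 11 genes on each array of Thy+6C3-CD105+ cells (red, left) and Thy+6C3-CD105- cells (blue, right). Symbols give the replicate, lines the mean and bars the SD of 3 arrays. The groups overlap for the Eng probe set used and are apart in the other 11 panels.

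In Thy+6C3-CD105+ cells, 150 of 18193 genes rose and 35 fell at an adjusted p under 0.05, which is 0.824% and 0.192% of the genes tested. Together the 185 called genes are 1.02%. Counts of called genes in the gene lists below are to be read against these shares. In all 185 the 3 arrays of each population do not overlap, as in 24.8% of all genes (9.52% with Thy+6C3-CD105+ above and 15.3% with it below). The median change of the genes called higher was 1.53, and 132 of them changed at least 2-fold. The genes called lower had a median change of -1.02, and 18 changed at least 2-fold. Over all genes the median change was -0.08. The arrays give no detection call, and 55 of the genes called higher and 13 of those called lower had both population means below the median gene mean of 6.76. Without replicate 3 of Thy+6C3-CD105-, 92 genes were called, 86 higher and 6 lower, and 88 of them were among the 185. Within the arrays of high poly-A control signal, 2 per population, 59 genes were called, 57 higher and 2 lower. The low set holds 1 array of each population and gives no test. In such sorted bulk samples, fewer cells of a type and less RNA per cell cannot be told apart.

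**Figure D2:**
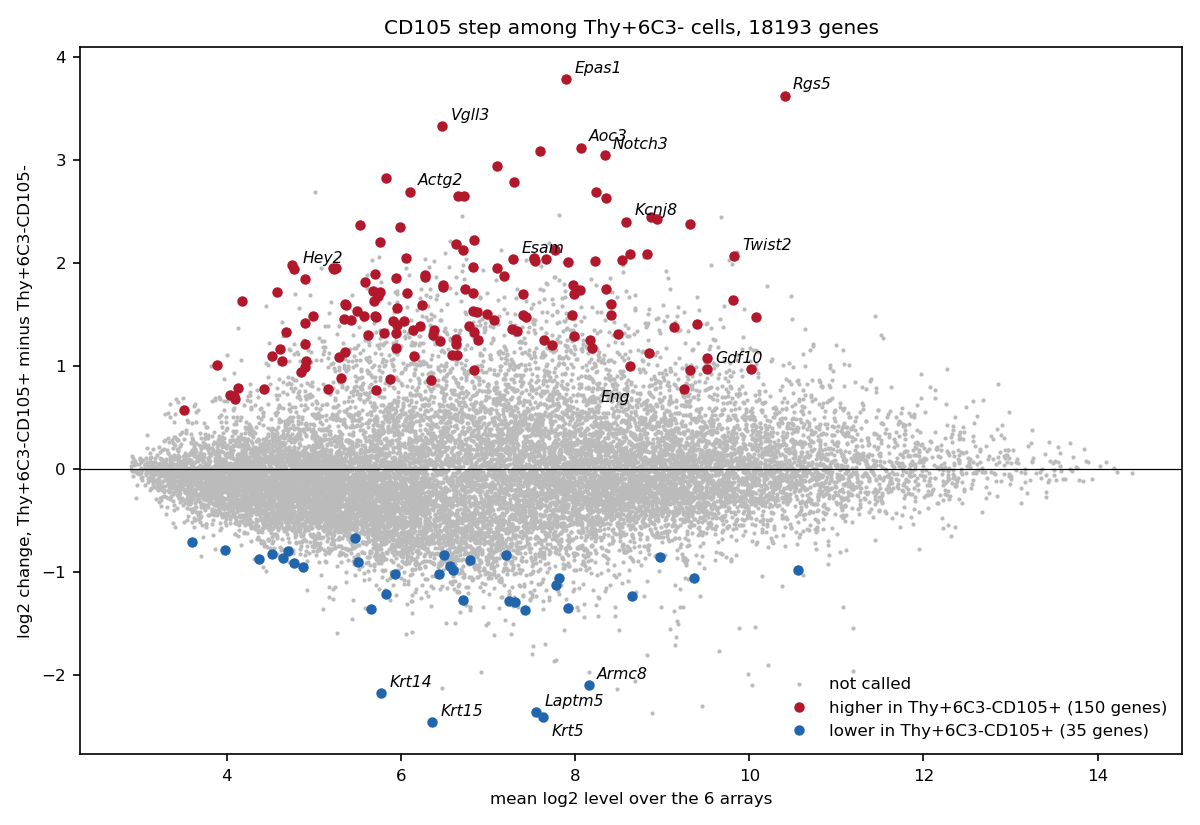
Log2 change of each gene, Thy+6C3-CD105+ minus Thy+6C3-CD105- (y axis), against its mean log2 level over the 6 arrays (x axis). Red points are the 150 genes called higher, blue points the 35 called lower and grey points the rest. Among the labelled genes, Epas1, Rgs5, Vgll3, Aoc3 and Notch3 lie above 3, and Krt5, Krt14, Krt15, Laptm5 and Armc8 lie below -2.

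Pericyte genes were among the largest rises. Of 24 pericyte genes measured, 10 were called higher and none lower, against 0.824% of all genes called higher. The median change of the 24 was 1.30, while that of all genes was -0.08. The mean level of the list lay between 8.52 and 8.63 on the Thy+6C3-CD105+ arrays, against 7.12 to 7.38 on the Thy+6C3-CD105- arrays. Without replicate 3 of Thy+6C3-CD105-, 7 of the 24 were called and the median was 1.07. Tbx18, Heyl and Art3 are the members that no longer passed, with adjusted p of 0.134, 0.0956 and 0.115.

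Rgs5, a regulator of G protein signalling that is a standard pericyte marker, had 12.06, 12.40 and 12.21 in Thy+6C3-CD105+ cells, against 8.26, 8.89 and 8.63 in Thy+6C3-CD105- cells. The lowest of the Thy+6C3-CD105+ arrays lies more than 3 above the highest of the others. The change was 3.63 ± 0.27, or 12.4-fold, with an adjusted p of 1.07e-06 in limma. All 4 Rgs5 probe sets were called, with changes between 2.98 and 4.56. Kcnj8, the pore-forming subunit of a potassium channel that opens when ATP is low, had 9.54, 9.82 and 10.01 in Thy+6C3-CD105+ cells, against 7.28, 6.99 and 7.89 in Thy+6C3-CD105- cells. The groups are well apart, and the change was 2.40 ± 0.22 (adjusted p of 8.07e-06, limma).

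Abcc9, which encodes the regulatory subunit of the same channel, depends on the probe set. The one used changed by 0.92 ± 0.40, and its adjusted p was 0.189 in limma. The other 2 probe sets changed by 2.75 ± 0.21 and 4.16 ± 0.33 and both were called over all probe sets. The larger of these had 10.49, 10.67 and 10.74 in Thy+6C3-CD105+ cells, against 6.97, 6.81 and 5.65 in Thy+6C3-CD105- cells, which is the widest gap of the 3 probe sets.

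Soluble guanylate cyclase, the nitric oxide receptor that makes cyclic GMP, followed the same pattern in its alpha subunit. Gucy1a1 had 7.91, 8.29 and 7.94 in Thy+6C3-CD105+ cells, against 5.19, 5.69 and 5.32 in Thy+6C3-CD105- cells, without overlap. It rose by 2.65 ± 0.24 (adjusted p of 8.07e-06, limma). The probe set used for the beta subunit, Gucy1b1, changed by -0.07 ± 0.29, while its second probe set changed by 2.80 ± 0.34 and was called over all probe sets. The other alpha subunit, Gucy1a2, rose by 1.44 ± 0.33 (adjusted p of 0.0483, limma). Of the enzymes that break down cyclic GMP, Pde5a rose by 1.48 ± 0.33 (0.041) and Pde1a, which also cleaves cyclic AMP, by 0.99 ± 0.22 (0.0385). Without replicate 3 of Thy+6C3-CD105-, Pde5a, Gucy1a2 and Pde1a did not pass, at changes of 1.48, 1.23 and 1.01 (adjusted p of 0.134, 0.239 and 0.115 in limma). A second probe set of Gucy1a2 changed by 0.084 and one of Pde1a by 0.028. Gucy1a2 and Pde1a were chosen after their values were seen.

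Other pericyte genes called higher were Steap4, a metalloreductase (2.43 ± 0.32), Higd1b, a mitochondrial membrane protein (1.73 ± 0.20), and Mcam, the adhesion molecule CD146 (1.70 ± 0.21). Tbx18, a transcription factor of mural cells, rose by 1.50 ± 0.35. Art3, an ADP-ribosyltransferase family member, rose by 2.37 ± 0.49 on the probe set used and changed by -0.20 on its other one. Pdgfrb, the receptor that recruits pericytes to vessels, had 12.29, 12.32 and 11.94 in Thy+6C3-CD105+ cells, against 11.68, 11.23 and 9.18 in Thy+6C3-CD105- cells. The groups do not overlap, but the difference of 1.49 ± 0.44 did not pass (adjusted p of 0.108, limma). Cspg4, the NG2 proteoglycan of pericytes, overlapped between the groups and differed by 0.26 ± 0.30. The 14 members that were not called differed by -0.34 to 1.76.

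Contractile genes of smooth muscle were higher in part. Of 20 measured, 5 were called higher and none lower, against 0.824% of all genes called higher, and the median change was 0.50. Actg2, the enteric smooth muscle actin, had 7.38, 7.54 and 7.42 in Thy+6C3-CD105+ cells, against 4.56, 4.96 and 4.74 in Thy+6C3-CD105- cells. It rose by 2.70 ± 0.24 (adjusted p of 8.07e-06, limma). Myh11, the smooth muscle myosin heavy chain, had 7.19, 7.45 and 6.86 in Thy+6C3-CD105+ cells, against 5.04, 4.78 and 4.64 in Thy+6C3-CD105- cells. Neither gene overlapped between the groups, and Myh11 rose by 2.35 ± 0.28 (0.000174). Its second probe set, with levels below 5 on all 6 arrays, changed by 0.12.

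The integrin gene Itga8 rose by 2.69 ± 0.50 (0.57 and not called on its second probe set), the actin-binding protein gene Tagln by 1.41 ± 0.23 and Mrvi1, a target of cyclic GMP-dependent kinase, by 1.35 ± 0.23. All 5 contractile genes also passed without replicate 3 of Thy+6C3-CD105-. Over the alternatives of the processing, Actg2 and Myh11 kept their calls, and Tagln lost its call under 2 of 20 and Mrvi1 under 2 of 18. Itga8 lost its call under 4 of 20, among them leaving out replicate 2 or replicate 3 of Thy+6C3-CD105+. Acta2, smooth muscle alpha actin, had 12.56, 12.85 and 12.85 in Thy+6C3-CD105+ cells, against 11.32, 11.96 and 12.08 in Thy+6C3-CD105- cells. The groups do not overlap, but the difference of 0.97 ± 0.24 missed the threshold (adjusted p of 0.0627, limma), as did those of Ppp1r14a (1.48 ± 0.37, 0.0656) and Mylk (0.79 ± 0.25, 0.123). These 3 were chosen after their values were seen.

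The Notch genes called were a receptor and a pair of its targets. Of 19 pathway genes measured, 3 were called higher and none lower, against 0.824% of all genes called higher, and the median change was -0.01. Of these, Notch3 and Heyl are also counted among the pericyte genes. Among the 19, 7 (36.8%) had an unadjusted p under 0.05 in limma, 4 higher and 3 lower, against 22.4% of all genes. Without overlap, 4 members lay above and 5 below, against 9.52% and 15.3% of all genes. The lowest change of the list was -0.85, for Dll1. Notch3, the mural cell receptor, had 10.30, 9.80 and 9.50 in Thy+6C3-CD105+ cells, against 7.64, 7.01 and 5.78 in Thy+6C3-CD105- cells. Replicate 3 of Thy+6C3-CD105- was the lowest, and the groups do not overlap with or without it. The change was 3.05 ± 0.42 with it (adjusted p of 0.000676, limma) and 2.54 without it (0.00295). The second Notch3 probe set rose by 1.49 ± 0.29 and was called over all probe sets.

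Hey2, a transcriptional repressor downstream of Notch, had 5.28, 6.28 and 5.66 in Thy+6C3-CD105+ cells, against 3.85, 3.91 and 3.65 in Thy+6C3-CD105- cells. It rose by 1.94 ± 0.18 (adjusted p of 9.99e-06, limma), with all levels below the median gene mean. Its relative Heyl rose by 1.25 ± 0.25 (0.0153), and did not pass without replicate 3 of Thy+6C3-CD105-. The target genes Hes1 and Hey1 differed by -0.01 ± 0.24 and 0.08 ± 0.23, and Notch1 by 0.44 ± 0.26. The ligand gene Jag1 had 9.26, 8.43 and 8.24 in Thy+6C3-CD105+ cells, against 8.71, 7.70 and 5.47 in Thy+6C3-CD105- cells, with overlapping groups. These 4 were chosen after their values were seen.

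Promoter sequences are shown for Rgs5, the pericyte gene with the widest change, and for Notch3 and Hey2, the receptor and the target with the largest rises of the Notch list. Each runs from 250 bases before to 50 bases after the annotated start of the gene, 5′ to 3′ on the strand of the gene, from RefSeq on build GRCm38.p6. The windows lie at chr1:169655251-169655550 on the plus strand for Rgs5, chr17:32166841-32167140 on the minus strand for Notch3 and chr10:30842734-30843033 on the minus strand for Hey2. Capitals mark matches, on either strand, to GTGGGAA of RBPJ, the DNA-binding partner of Notch, to GGAATG of the TEAD factors, to ACGTG of the hypoxia response element, or to the CArG box of serum response factor.
Rgs5: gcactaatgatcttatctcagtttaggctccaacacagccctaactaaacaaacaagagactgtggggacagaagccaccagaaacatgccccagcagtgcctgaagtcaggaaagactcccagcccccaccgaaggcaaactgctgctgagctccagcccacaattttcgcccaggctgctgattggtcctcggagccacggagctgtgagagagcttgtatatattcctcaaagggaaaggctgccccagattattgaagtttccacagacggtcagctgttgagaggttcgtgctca
Notch3: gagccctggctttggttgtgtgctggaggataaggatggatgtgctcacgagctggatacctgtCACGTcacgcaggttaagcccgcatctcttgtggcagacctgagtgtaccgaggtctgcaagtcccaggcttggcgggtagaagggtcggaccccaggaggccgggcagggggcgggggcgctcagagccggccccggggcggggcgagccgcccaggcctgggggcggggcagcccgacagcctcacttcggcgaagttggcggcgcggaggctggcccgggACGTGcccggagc
Hey2: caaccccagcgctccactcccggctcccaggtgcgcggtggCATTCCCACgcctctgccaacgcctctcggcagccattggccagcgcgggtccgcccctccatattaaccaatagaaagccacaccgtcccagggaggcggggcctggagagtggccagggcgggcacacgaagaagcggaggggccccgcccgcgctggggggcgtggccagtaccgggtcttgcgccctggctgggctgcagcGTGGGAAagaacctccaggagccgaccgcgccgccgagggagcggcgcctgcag

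The Rgs5 window holds none of these motifs. The Notch3 window holds ACGTG or its reverse complement CACGT 2 times. The Hey2 window holds the RBPJ motif 2 times, once as TTCCCAC and once as GTGGGAA, and the TTCCCAC match overlaps a TEAD match, CATTCC. Of all 32851 promoters in the table, 6.38% hold the RBPJ motif, 14.7% the TEAD motif, 19.6% the hypoxia motif and 1.63% the CArG box. In the same order, the shares were 6.33%, 13.2%, 22.9% and 1.35% of the 18109 promoters of the genes tested. A promoter was found for 112 of the 150 genes called higher, and of their 147 promoters 6.12%, 15.0%, 15.0% and 0.68% hold these motifs in the same order. These shares describe letters in the window, not binding.

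Epas1, which encodes the hypoxia-inducible factor subunit HIF-2 alpha, had the largest change of all genes called. It had 9.85, 9.88 and 9.66 in Thy+6C3-CD105+ cells, against 6.38, 6.21 and 5.43 in Thy+6C3-CD105- cells, a gap of over 3 between the nearest arrays. The change was 3.79 ± 0.23, or 13.8-fold (adjusted p of 9.45e-08, limma), and 3.50 without replicate 3 of Thy+6C3-CD105-. Its second probe set overlapped between the groups and changed by 0.32 ± 0.30. Of 20 genes of the hypoxia-inducible factor system Epas1 alone was called, against 0.824% of all genes called higher, and the median change was 0.15. Hif1a, the HIF-1 alpha subunit, had 11.12, 10.91 and 10.96 in Thy+6C3-CD105+ cells, against 10.72, 10.71 and 8.61 in Thy+6C3-CD105- cells. Pdk1, a hypoxia-responsive kinase, had 9.80, 10.10 and 10.01 in Thy+6C3-CD105+ cells, against 10.01, 9.83 and 5.34 in Thy+6C3-CD105- cells. In both genes replicate 3 of Thy+6C3-CD105- is far below its own group.

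No partner of endoglin was called. Of 22 genes of its receptor complex and the Smads, 0 were called by limma. An unadjusted p under 0.05 was found for 4 (18.2%), all with higher levels in Thy+6C3-CD105+ cells, and for 4072 of all genes (22.4%). The median change of the list was 0.17. Acvrl1, the type I receptor that works with endoglin in vessels, had overlapping levels and differed by -0.03 ± 0.23. Tgfbr2, the type II receptor for TGF beta, differed by 0.19 ± 0.15, and the BMP target Id1 by -0.15 ± 0.38. Among 23 TGF beta and BMP ligands and antagonists, 2 were called higher and none lower, against 0.824% of all genes called higher. Fst, the activin antagonist follistatin, rose by 2.38 ± 0.53 and Gdf10, a ligand of the family, by 0.97 ± 0.15. Fst had 10.54, 10.46 and 10.54 in Thy+6C3-CD105+ cells, against 8.22, 8.22 and 7.94 in Thy+6C3-CD105- cells. The groups lie far apart, yet its adjusted p was 0.0385 in limma, and 0.155 without replicate 3 of Thy+6C3-CD105-. The test takes its spread from all 6 populations. The SD of Fst was 0.05 in Thy+6C3-CD105+ cells, 0.16 in Thy+6C3-CD105- cells and between 0.37 and 1.57 in the 4 Thy- populations.

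Genes of signals to mural cells were higher in small numbers. Of 17 vasoactive genes measured, 2 were called higher and none lower, against 0.824% of all genes called higher. They are Avpr1a, a vasopressin receptor (2.19 ± 0.35), and Ptger3, a prostaglandin E2 receptor (1.95 ± 0.37). In the list, 8 genes had an unadjusted p under 0.05 in limma, 5 higher and 3 lower, and the lowest change was -1.19, for Adra1b. The second Ptger3 probe set differed by -0.49 and was not called. Of 6 PDGF genes, 1 was called higher and none lower, against 0.824% of all genes called higher, and the median change was 0.36. It is the ligand gene Pdgfd, which rose by 2.05 ± 0.45 (adjusted p of 0.0339, limma). Pdgfd lost the call with the mean of its probe sets, and its change spanned 0.83 to 2.40 over the alternatives of the processing. Calcrl, the receptor for calcitonin gene-related peptide and adrenomedullin, rose by 1.90 ± 0.36 on the probe set used and changed by 0.20 and 0.048 on its other 2. Its partners Ramp1, which directs it to calcitonin gene-related peptide, and Ramp2, which directs it to adrenomedullin, rose by 1.49 ± 0.23 and 0.96 ± 0.22. The other 2 Ramp1 probe sets changed by 0.16 and -0.21 and were not called. Calcrl and Ramp1 were chosen after their values were seen. Without replicate 3 of Thy+6C3-CD105-, Avpr1a and Ramp1 passed (0.00743 and 0.00828) and Ptger3, Pdgfd, Calcrl and Ramp2 did not.

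Of 20 endothelial markers measured, 2 were called higher and none lower, against 0.824% of all genes called higher. They are Ramp2 and the adhesion molecule gene Esam (2.04 ± 0.18), both also found outside endothelium. Esam had 8.31, 8.35 and 8.27 in Thy+6C3-CD105+ cells, against 6.06, 6.44 and 6.31 in Thy+6C3-CD105- cells, without overlap. The median of the list was 0.04, and its mean level ranged from 6.36 to 6.54 in Thy+6C3-CD105+ cells and from 6.31 to 6.50 in Thy+6C3-CD105- cells. Pecam1, which encodes CD31, had 5.04, 4.28 and 4.50 in Thy+6C3-CD105+ cells, against 5.26, 5.60 and 5.48 in Thy+6C3-CD105- cells, a difference of -0.84 ± 0.41. Cdh5, VE-cadherin, had overlapping groups and differed by -0.07 ± 0.16. Pecam1 and Cdh5 were chosen after their values were seen.

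**Figure D3:**
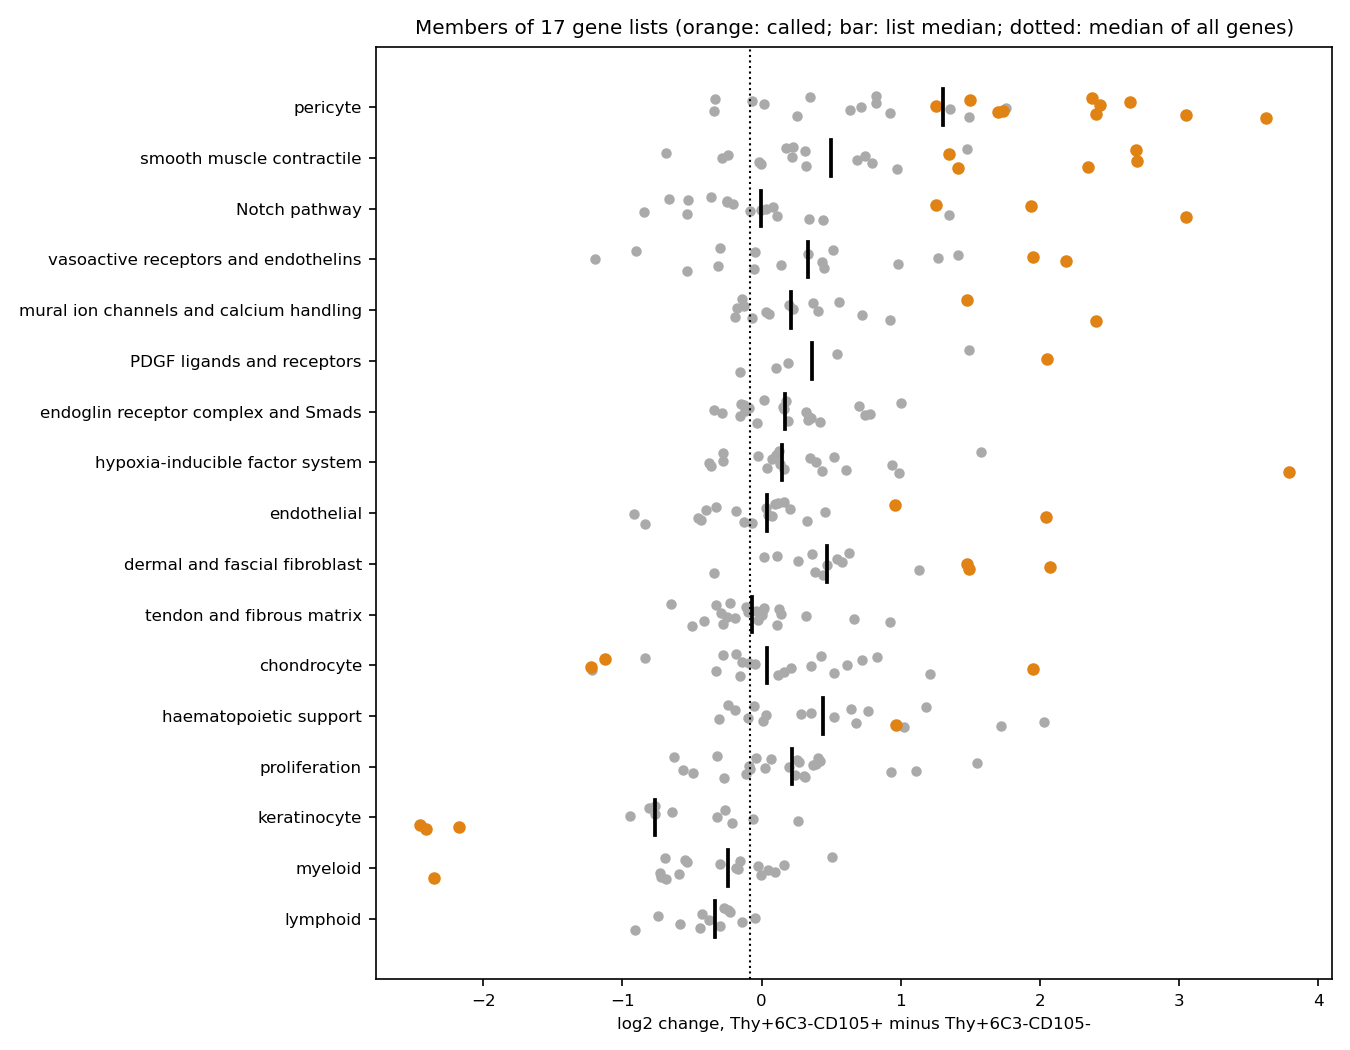
Log2 change, Thy+6C3-CD105+ minus Thy+6C3-CD105- (x axis), of each measured member of 17 gene lists (rows). Orange points passed the test, grey points did not, bars are list medians and the dotted line is the median of all genes at -0.08. Called pericyte and smooth muscle members lie to the right and called keratinocyte members to the left.

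Vgll3, a cofactor of the TEAD factors, had 8.15, 8.09 and 8.17 in Thy+6C3-CD105+ cells, against 5.88, 4.76 and 3.78 in Thy+6C3-CD105- cells. The Thy+6C3-CD105+ arrays differ by less than 0.1, the Thy+6C3-CD105- arrays by more than 2, and the groups do not overlap. The change was 3.33 ± 0.36 (adjusted p of 5.76e-05, limma), and its other 2 probe sets rose by 3.06 and 3.62. Zeb2, a zinc finger repressor, rose by 2.64 ± 0.42.

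The median change of 15 genes of dermal and fascial fibroblasts was 0.47. Of these, 3 were called higher and none lower, against 0.824% of all genes called higher. They are Twist2, a basic helix-loop-helix factor of dermal mesenchyme (2.07 ± 0.30), the transcriptional repressor gene Prdm1 (1.49 ± 0.19) and the Wnt inhibitor gene Apcdd1 (1.48 ± 0.18). Twist2 had 11.45, 10.51 and 10.63 in Thy+6C3-CD105+ cells, against 9.16, 8.54 and 8.68 in Thy+6C3-CD105- cells, without overlap. All 3 also passed without replicate 3 of Thy+6C3-CD105-. Of 22 limb patterning genes, 2 were called higher and none lower, against 0.824% of all genes called higher. Shox2, a homeobox factor of the proximal limb, rose by 2.04 ± 0.33 and Meis1, another homeobox factor, by 1.54 ± 0.27. These rises are of 1 probe set each: a second Shox2 probe set changed by -0.24 and the other 2 of Meis1 by 0.41 and 0.019, none of them called. The median of that list was -0.01.

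The aryl hydrocarbon receptor gene Ahr rose by 2.08 ± 0.29 and Ahrr, its repressor, by 1.63 ± 0.20. A second Ahr probe set changed by -0.24 and was not called. The Iroquois factors Irx5 and Irx3 rose by 2.05 ± 0.36 and 1.97 ± 0.41, and Irx3 did not pass without replicate 3 of Thy+6C3-CD105- (adjusted p of 0.16, limma). These 4 were chosen after their values were seen. Of 27 Wnt agonists and antagonists, 3 were called higher and 1 lower, against 0.824% and 0.192% of all genes. The agonists Rspo1 and Rspo3 rose by 1.40 ± 0.21 and 1.39 ± 0.29. The antagonist gene Frzb rose by 1.68 ± 0.34 and the antagonist gene Sfrp5 fell by 1.37 on the log2 scale. Without replicate 3 of Thy+6C3-CD105-, Rspo1 alone of these passed (0.00553). Of 24 guidance genes measured, 2 were called higher and none lower, against 0.824% of all genes called higher. They are Sema5a (2.01 ± 0.42) and Slit2 (1.70 ± 0.37), and neither passed without replicate 3 of Thy+6C3-CD105-.

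Aoc3, a vascular amine oxidase known from smooth muscle and fat, rose by 3.12 ± 0.49. The basement membrane and extracellular matrix genes Hmcn1 and Frem1 rose by 3.09 ± 0.55 and 2.94 ± 0.31. Hmcn1 had 9.02, 9.35 and 9.06 in Thy+6C3-CD105+ cells, against 6.90, 6.57 and 4.70 in Thy+6C3-CD105- cells. The lowest value is again replicate 3 of Thy+6C3-CD105-, and without it the change was 2.41 (adjusted p of 0.0396, limma). Apela, which encodes a peptide ligand of the apelin receptor, rose by 2.83 ± 0.36 and the adhesion receptor gene Adgrf5 by 2.65 ± 0.28. Apela kept its call under each of 19 alternatives of the processing, at changes from 1.50 to 3.06.

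None of the 21 basement membrane genes, 22 tendon and fibrous matrix genes, 15 osteoblast genes or 24 proliferation genes measured was called by limma in either direction. Their medians were 0.10, -0.07, 0.19 and 0.22. An unadjusted p under 0.05 was found for 7, 3, 5 and 4 of them. These are 33.3%, 13.6%, 33.3% and 16.7%, on both sides of the 22.4% of all genes. Of 18 genes of haematopoietic support, 1 was called higher and none lower, against 0.824% of all genes called higher. It is the adhesion molecule gene Vcam1 (0.97 ± 0.19), which did not pass without replicate 3 of Thy+6C3-CD105-. The list median was 0.44. Of 22 chondrocyte genes, 1 was called higher and 2 lower, against 0.824% and 0.192% of all genes. The matrilin gene Matn1 rose by 1.95 ± 0.34, while Matn4 and Epyc fell by 1.23 and 1.13 on the log2 scale. The median of the list was 0.04. Matn1 passed without replicate 3 of Thy+6C3-CD105-, and Matn4 and Epyc did not.

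Keratin genes of basal epidermis were among the largest falls. Of 13 keratinocyte genes measured, 3 were called lower and none higher, against 0.192% of all genes called lower, and the median change was -0.76. The mean level of the list ranged from 5.37 to 5.43 on the Thy+6C3-CD105+ arrays, against 6.15 to 6.53 on the Thy+6C3-CD105- arrays. Krt5 had 6.65, 6.37 and 6.28 in Thy+6C3-CD105+ cells, against 8.31, 8.97 and 9.25 in Thy+6C3-CD105- cells. Krt14, its partner keratin, had 4.83, 4.47 and 4.75 in Thy+6C3-CD105+ cells, against 6.34, 7.71 and 6.54 in Thy+6C3-CD105- cells. Neither overlaps between the groups.

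Krt5 fell by 2.41 on the log2 scale (SE 0.25, adjusted p of 2.98e-05, limma), Krt14 by 2.18 (0.27, 0.000262) and Krt15 by 2.45 (0.45, 0.0092). All 3 passed without replicate 3 of Thy+6C3-CD105-, at -2.21, -2.34 and -2.59. Over the alternatives of the processing, Krt5 kept its call under all 20, and Krt14 lost it under 1 of 19. Krt15 lost it under 4 of 19, among them leaving out replicate 2 or replicate 3 of Thy+6C3-CD105+. Of the other members, Sfn, which encodes 14-3-3 sigma, and Col17a1, a hemidesmosome collagen, differed by -0.76 ± 0.19 and -0.77 ± 0.22 without passing, and Krt1 and Krt10, keratins of the upper epidermis, by -0.21 ± 0.16 and 0.26 ± 0.30. These 4 were chosen after their values were seen. The part of keratinocyte RNA in the other differences was not tested.

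Genes of leukocytes, which the CD45 gate leaves out, were lower in small numbers. Of 18 myeloid genes Laptm5, a lysosomal membrane protein of leukocytes, was the one called, against 0.192% of all genes called lower. It had 6.65, 6.15 and 6.33 in Thy+6C3-CD105+ cells, against 9.48, 7.73 and 8.99 in Thy+6C3-CD105- cells, and fell by 2.36 on the log2 scale (SE 0.45, adjusted p of 0.0135, limma). Its other 4 probe sets changed by -0.52 to 0.18 and were not called, and without replicate 3 of Thy+6C3-CD105- the adjusted p was 0.0753. Ptprc, which encodes CD45, had 4.25, 4.03 and 3.83 in Thy+6C3-CD105+ cells, against 4.35, 4.71 and 5.10 in Thy+6C3-CD105- cells, without overlap, and was not called.

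The mean level of the 18 myeloid genes was 5.51 to 5.71 in Thy+6C3-CD105+ cells, against 5.77 to 6.20 in Thy+6C3-CD105- cells. That of 12 lymphoid genes was 4.74 to 4.96 in Thy+6C3-CD105+ cells, against 4.98 to 5.52 in Thy+6C3-CD105- cells. Their median changes were -0.24 and -0.34. Of the 18, 7 (38.9%, 6 lower and 1 higher) had an unadjusted p under 0.05 in limma, and of the 12, 4 (33.3%, all lower). The share of all genes was 22.4%. Outside the lists, the chemokine gene Ccl5 fell by 0.98 on the log2 scale and the leukocyte genes Hcls1, Pstpip1 and Ccr10 by 0.95, 1.02 and 0.94, all at adjusted p between 0.0415 and 0.049 in limma. Without replicate 3 of Thy+6C3-CD105- none of the 4 passed, with adjusted p of 0.163 to 0.239. These 4 were chosen after their values were seen. The part of leukocyte RNA in the differences was not tested.

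Other falls rest on single probe sets or small changes. Armc8, a subunit of a ubiquitin ligase complex, averaged 7.11 ± 0.16 in Thy+6C3-CD105+ cells and 9.20 ± 0.39 in Thy+6C3-CD105- cells (SD, n = 3 each). It fell by 2.10 on the log2 scale (adjusted p of 0.0283, limma), while its other 4 probe sets changed by 0.18 to 1.28. It did not pass without replicate 3 of Thy+6C3-CD105- (0.105). Prag1, a pseudokinase, fell by 1.35 (0.00512) and also passed without replicate 3 of Thy+6C3-CD105- (0.0207). Sema3b, a secreted semaphorin, fell by 1.06 (0.0385) and did not pass without that array. Over the 95 called genes with more than 1 probe set, another probe set changed by over 0.5 in the same direction for 50 and for the other 45 none did.

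Set beside the other 4 neonatal populations, the genes called higher show 2 kinds of pattern. Of the 150, 127 had their highest mean of the 6 populations in Thy+6C3-CD105+ cells, against 15.4% of all genes. This count is a description, since the genes were chosen as higher there than in Thy+6C3-CD105- cells. Rgs5 was at 12.22 ± 0.17 (SD, n = 3) there, at 8.59 ± 0.32 in Thy+6C3-CD105- cells and between 8.42 and 9.72 in the 4 Thy- populations. Vgll3 was at 8.14 ± 0.04 in Thy+6C3-CD105+ cells, 4.81 ± 1.05 in Thy+6C3-CD105- cells and between 3.63 and 4.04 in the Thy- populations. In both genes Thy+6C3-CD105+ cells stand above the rest.

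The other pattern is a low point in Thy+6C3-CD105- cells. Of the 150 genes, 46 had their lowest mean there, against 22.1% of all genes. The same choice favours this count, and a gene can show both patterns. Epas1 was at 9.79 ± 0.12 in Thy+6C3-CD105+ cells, 6.01 ± 0.50 in Thy+6C3-CD105- cells and between 8.96 and 9.67 in the Thy- populations. F13a1, which encodes the A chain of coagulation factor XIII, was at 8.70 ± 0.82 in Thy+6C3-CD105+ cells, 5.91 ± 0.10 in Thy+6C3-CD105- cells and between 8.18 and 9.08 in the Thy- populations. Shox2 was at 8.55 ± 0.14 in Thy+6C3-CD105+ cells, 6.51 ± 0.61 in Thy+6C3-CD105- cells and between 8.24 and 9.13 elsewhere. For these 3 genes the level in Thy+6C3-CD105+ cells lies near that of the Thy- populations.

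Of the 35 genes called lower, 32 had their highest mean in Thy+6C3-CD105- cells, against 38.3% of all genes. The choice of these 35 favours this count. Krt5 was at 6.43 ± 0.19 in Thy+6C3-CD105+ cells, 8.84 ± 0.48 in Thy+6C3-CD105- cells and between 6.38 and 6.88 in the Thy- populations.

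**Figure D4:**
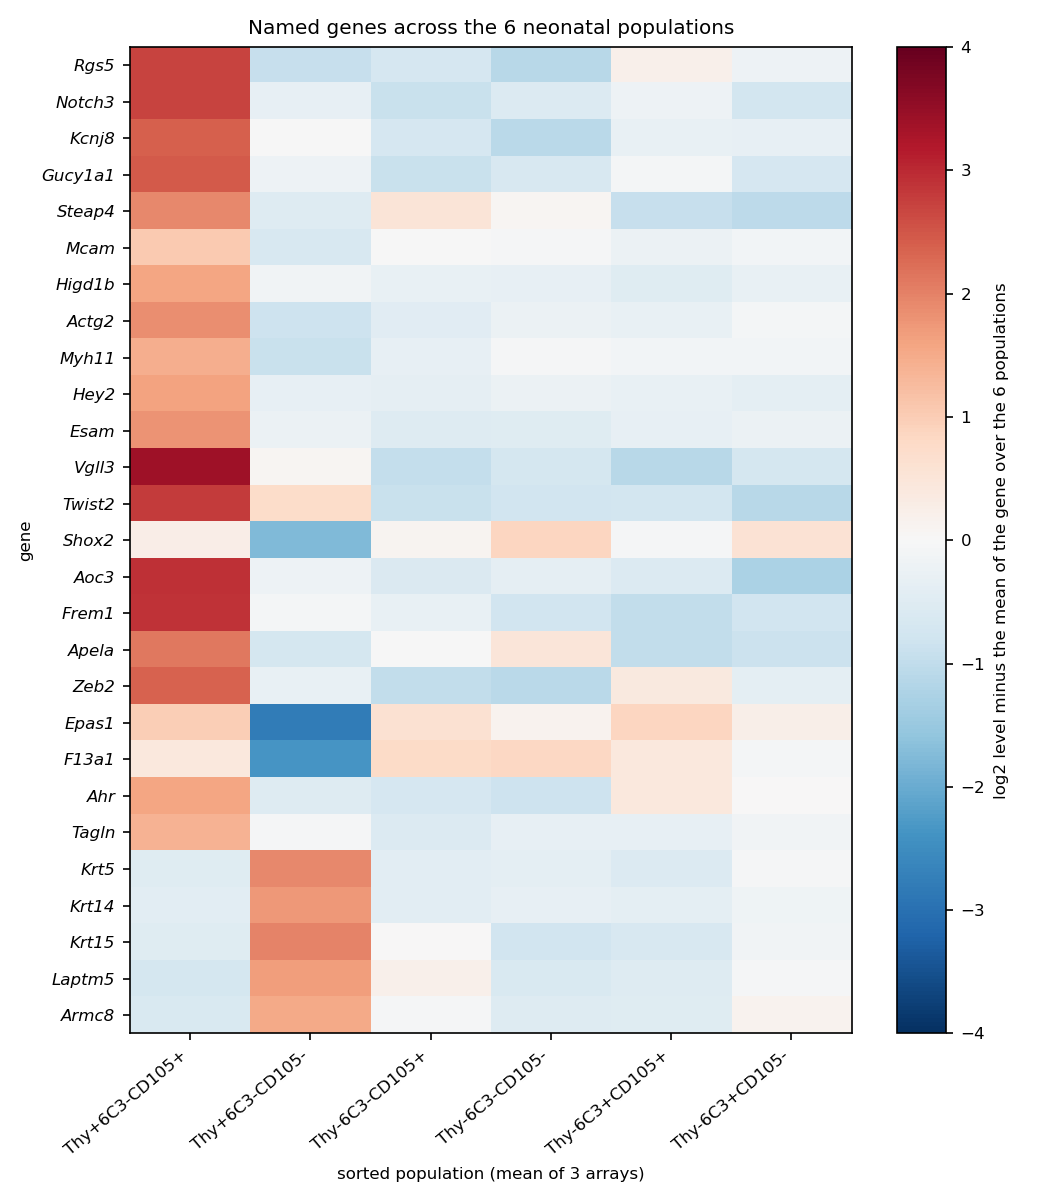
Mean log2 level of 27 named genes (rows) in the 6 neonatal populations (columns, mean of 3 arrays each), less the mean of the gene over the 6 populations. Rgs5 and Vgll3 are high in the Thy+6C3-CD105+ column, Epas1, F13a1 and Shox2 are low in the Thy+6C3-CD105- column, and the keratin genes are high there.

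The same CD105 step exists in Thy-6C3- and in Thy-6C3+ cells, on arrays not shared with the Thy+6C3- step. There, 1 gene (0.0055%) and 0 genes were called by limma, with 318 and 498 genes at an unadjusted p under 0.05. The median change of the 150 genes called higher in Thy+6C3- cells was -0.06 in the Thy-6C3- step and 0.11 in the Thy-6C3+ step. The difference between the steps was itself tested over all genes. Against the Thy-6C3- step, 49 genes differed (0.269%), 44 of them (0.242%) with the more positive change in Thy+6C3- cells and 5 (0.0275%) with the more negative. Against the Thy-6C3+ step, 39 genes differed (0.214%), 37 of them (0.203%) with the more positive and 2 (0.011%) with the more negative change. Among the 150 genes called higher, 43 and 36 had a larger step by these tests and 26 by both. The Thy+6C3- arrays enter both tests, so the 2 counts are not independent.

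Within the high poly-A set alone, neither difference gave a called gene, with 2053 and 622 genes at an unadjusted p under 0.05. Fst and Matn1, with changes of 1.46 and 1.13 in the Thy-6C3+ step, are called genes that were not called for a difference from it.

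**Figure D5:**
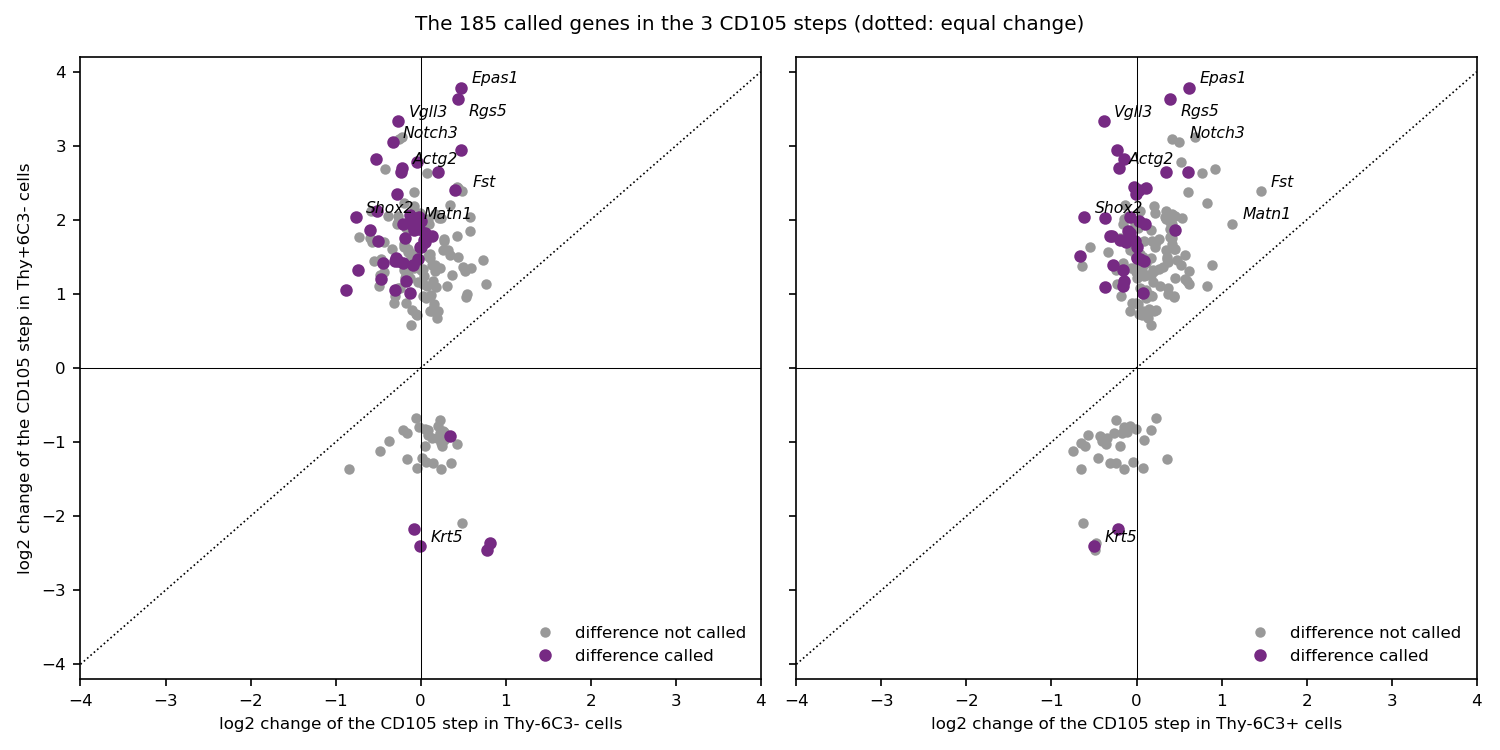
Log2 change of the 185 called genes in the CD105 step of Thy+6C3- cells (y axis) against their change in the step of Thy-6C3- cells (left, x axis) and of Thy-6C3+ cells (right, x axis). Purple points were called for the difference between the steps, and the dotted line marks equal change. On the x axes the 150 genes called higher have medians of -0.06 (left) and 0.11 (right).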

How the data were processed

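RNA of sorted cells was amplified, labelled with biotin and hybridized to Affymetrix mouse arrays, per the labels' protocols. The deposited table holds log2 expression values for 45101 probe sets. The authors' step from scans to these log2 values was not given in the sources used here. Array medians in the deposited table spanned 5.60 to 6.02, so the 19 arrays were quantile normalized. Of the probe sets, 34945 had 1 gene symbol, 932 several and 9160 none, and 64 were controls. Each of 18193 genes was represented by its probe set of highest mean across the 18 neonatal arrays, and low values were not filtered.

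Arrays were grouped by the population field. Replicates 2 and 3 of Thy-6C3+CD105-, a population used here for a difference between steps, have titles that name Thy+ instead. The fit used limma 3.58.1 (R 4.3.3) and gave each of the 6 populations its own mean, leaving 12 residual and 5.38 prior degrees of freedom and a variance trend. Tests were two-sided, and genes were called at a Benjamini-Hochberg adjusted p under 0.05. Precision is limited by the 3 arrays per population. The fit was tested on simulated data.

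The members and the 40 gene lists, 653 of whose 693 entries were measured, were chosen with earlier results of these data known. Named genes are the 14 largest rises and falls whose groups do not overlap and whose higher mean lies above the median gene, up to 6 called members per list, all members of the sorted antigen, pericyte, endoglin, PDGF and hypoxia lists, and the 4 largest of each difference between steps, or are said to be chosen later. Not all are printed. Alternatives changed the scaling, genes, probe sets, variance model, array weights, blocks, grouping and arrays used. Figures were drawn with matplotlib 3.10.9.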

Additional observations from a re-analysis of the deposited data

Results flagged for a closer look

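These results were singled out because the CD105 step of Thy+6C3- cells differed from that of another background in a test of the difference itself, with limma's adjusted p over all genes. Values are the change in Thy+6C3- cells minus the change in the other background, on the log2 scale.

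Against Thy-6C3- cells, Vgll3 differed by 3.60 ± 0.52 (SE, adjusted p of 0.00343 in limma) and Notch3 by 3.38 ± 0.60 (0.0155). Apela differed by 3.35 ± 0.50 (0.00486) and Epas1 by 3.31 ± 0.33 (0.000185). In the other direction, Krt15 differed by -3.23 ± 0.64 (0.0368), Laptm5 by -3.18 ± 0.64 (0.0446), Krt5 by -2.40 ± 0.35 (0.00343) and Krt14 by -2.10 ± 0.38 (0.0209). In these 8 genes the step of Thy-6C3- cells was not called, which says little, since 1 of 18193 genes was called there. Krt15 was at 5.62 ± 0.69 (SD, n = 3) in Thy-6C3-CD105+ cells and 4.84 ± 0.13 in Thy-6C3-CD105- cells. Laptm5 was at 7.26 ± 0.77 and 6.44 ± 0.18. Both thus moved opposite to the Thy+6C3- step, as did Vgll3, Notch3 and Apela, while Epas1, Krt5 and Krt14 moved in its direction.

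Against Thy-6C3+ cells, Vgll3 differed by 3.72 ± 0.52 (adjusted p of 0.00255 in limma), Rgs5 by 3.23 ± 0.38 (0.000778), Frem1 by 3.18 ± 0.43 (0.00238) and Epas1 by 3.16 ± 0.33 (0.000366). Krt14 differed by -1.96 ± 0.38 (0.044) and Krt5 by -1.91 ± 0.35 (0.0233). Neither passed with the 2 Thy-6C3+CD105- arrays grouped by title (adjusted p of 0.19 for Krt14 and 0.0634 for Krt5) or with values as deposited (0.0685 and 0.0719).

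None of these differences passed in the high poly-A set. Under the other alternatives Epas1, Rgs5, Vgll3, Apela, Frem1 and, against Thy-6C3- cells, Krt5 kept the call, and Notch3 lost it without shared probe sets. Counting the high poly-A set, Krt15 lost it under 9 of 19 and Laptm5 under 12 of 20 alternatives. Krt14 lost it under 5 of 19 against Thy-6C3- cells and 13 of 19 against Thy-6C3+ cells, and Krt5 under 9 of 20 against Thy-6C3+ cells. No direction turned.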

How the results depend on the processing

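All 185 genes kept their direction under each alternative that changed the arrays, the scaling or the variance model, and the counts moved. The groups of these genes do not overlap, so leaving out or weighting arrays could not turn a direction. The variance model does not enter the change at all, so kept directions there show nothing. The 185 calls became 308 with a common median only (278 higher, 30 lower), which put the median change of all genes at 0.15 in place of -0.08. They became 45 among genes above the median gene mean, 2567 with array weights (887 higher, 1680 lower), 68 with the 2 compared populations fitted alone, 59 in the high poly-A set and 110 without the 2 arrays of highest deposited median, an alternative chosen after seeing the data. Leaving out 1 array in turn gave 78 to 733 calls: 87 and 78 without Thy+6C3-CD105+ replicates 2 and 3, and 733 and 92 without Thy+6C3-CD105- replicates 1 and 3. The cause of these moves was not tested.

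The 49 genes of the difference from Thy-6C3- cells became 86 with a common median, 12 above the median gene mean, 77 with the mean of probe sets, 645 with array weights and 0 in the high poly-A set (2053 at an unadjusted p under 0.05 in limma), with 30 to 104 on leaving out 1 array (32 and 30 without Thy+6C3-CD105+ replicates 2 and 3, 104 without Thy+6C3-CD105- replicate 1). The 39 genes of the difference from Thy-6C3+ cells became 8 above the median gene mean, 73 with array weights, 13 with the compared populations alone, 17 with 2 arrays grouped by title, 0 in the high poly-A set (622 unadjusted) and 15 without the 2 arrays, with 18 to 43 on leaving out 1 (18 and 19 without Thy+6C3-CD105+ replicates 2 and 3, 24 without Thy+6C3-CD105- replicate 2).

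Replicate numbers did not pair the samples throughout: deviations of same-numbered arrays from their group means correlated at 0.10, 0.28 and -0.04. Replicate 1 of both populations, low in poly-A control signal, correlated with each other at 0.988, the highest r of either array. A replicate block gave 307 calls (229 higher, 78 lower). Directions turned with other probe sets. Armc8, a called fall, was at 0.073 with the mean of its probe sets and 0.32 without shared probe sets, Gucy1b1 at 1.36 with the mean, and Art3, Ptger3 and Osr2 at -0.20, -0.49 and -0.13 without shared ones. Eng passed with the mean (1.29, adjusted p of 0.000713 in limma), with a common median (1.07, 0.0218) and with array weights (0.75, 0.0228). Of 88 named genes that were called, 26 kept direction and call under each of the 20 alternatives that measured them. No background signal was measured, so what low levels limit is unknown.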
